A study of Sus scrofa with 12 samples.

Results

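The genes described here are immune receptors, cytokines, chemokines and components of NF-kappaB signalling that carried at least 1 listed peak of N6-methyladenosine (m6A) in pig skeletal muscle. They were chosen by a rule on symbols: every gene listed for a peak whose symbol begins with CD and a digit, CCL, CXCL, CCR and a digit, CXCR, IL and a digit, TLR, TNF, IFN, NFKB, NLR or SLA-, together with CHUK and MAP3K7, added by name, and without CD82 and CXCR4, left out by name. The rule took 58 of the 2159 genes with a peak and 270 of the 13487 peaks. The data come from methylated RNA immunoprecipitation sequencing (MeRIP-seq), in which fragmented mRNA bound by an m6A antibody is sequenced beside unbound input RNA, in longissimus dorsi, the long back muscle, of 5-day-old pigs. The groups were Large White, a Western commercial breed, and Ningxiang, a Chinese indigenous breed, with no treatment given. Each breed had 3 immunoprecipitated and 3 input libraries, 12 in all, and 6 peak lists, 1 per replicate, are the values used here. Nothing in the labels says whether each replicate was a separate pig, so the p-values below measure the spread between samples, part or all of which may be technical.

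m6A is written on mRNA by a methyltransferase complex, most often near stop codons and in long internal exons, and is read by proteins that affect splicing, translation and decay. Many cytokine, chemokine and receptor mRNAs are short-lived, and pattern receptors such as the toll-like receptors start the signalling that induces them through NF-kappaB. In resting skeletal muscle such transcripts come from resident macrophages, endothelial cells, fibroblasts and the fibres themselves. In a bulk sample, fewer cells of a type and less RNA per cell cannot be told apart. Absence of a gene from a list means only that no peak on it passed the authors' calling, and says nothing of whether its mRNA carried m6A. Read depth is unknown.

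The lists held 2034 to 2533 peaks on 1310 to 1542 genes. The weakest member peak had a log10 p of -2.06. Cell type markers were counted where they had a curated RefSeq transcript (accession beginning NM) or a listed peak. Of the skeletal muscle markers, 8 of 9 carried a peak and 7 did so in all 6 lists, among them the myosin genes MYH1, MYH2 and MYH4. ACTA1 had no listed peak. For macrophages and monocytes it was 6 of 7, with CD14 and CD68 in all 6 lists and AIF1 and TYROBP in 1 list each. For T cells it was 1 of 8 (CD4, in 1 list). For B cells, neutrophils and natural killer cells it was 0 of 4, 0 of 2 and 0 of 2. The part of cell composition in the results below was not tested. RefSeq (assembly Sscrofa11.1) holds 213 symbols of the rule with a curated transcript, of which 58 (27.2%) had a peak, against 2129 of 3986 (53.4%) of all genes with such a transcript. The shares ran from 2 of 3 for NLR proteins to 3 of 37 for interferons and their receptors. Between these lay 6 of 10 for toll-like receptors, 8 of 17 for the TNF family and 7 of 39 for interleukins and their receptors. For NF-kappaB all 5 had a peak, but CHUK and MAP3K7 entered the rule by name, so that share is not set beside the others. The interferon ligands had no listed peak, including IFNB1 and IFNG, and neither did the classical cytokines IL1B, IL6, IL10 and TNF.

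Fewer of the immune genes were found in every list than of all genes with a peak, and more were found in a single list. A peak in all 6 lists was found for 13 of the 58 (22.4%), where 35.7% of all 2159 genes had one. At the other end 15 of 58 (25.9%) had a peak in 1 list, where 18.2% of all genes did, and neither share was tested. The 13 genes in every list were CCL14, CXCL14, IL4R, IL6ST, TNFSF13, IFNGR1, SLA-DRA, CD14, CD209, CD2AP, CD55, CD68 and CD93. In the Large White lists 49 genes had a peak, in the Ningxiang lists 46, and 37 were shared.

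**Figure D1:**
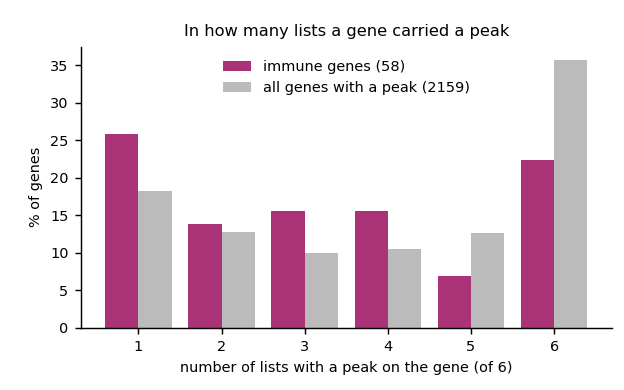
Share of genes (vertical axis, % of genes) by the number of the 6 lists in which the gene carried a peak (horizontal axis), for the 58 immune genes and for all 2159 genes with a peak. The immune genes stand at 22.4% in 6 lists and 25.9% in 1 list, against 35.7% and 18.2% for all genes.

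**Figure D2:**
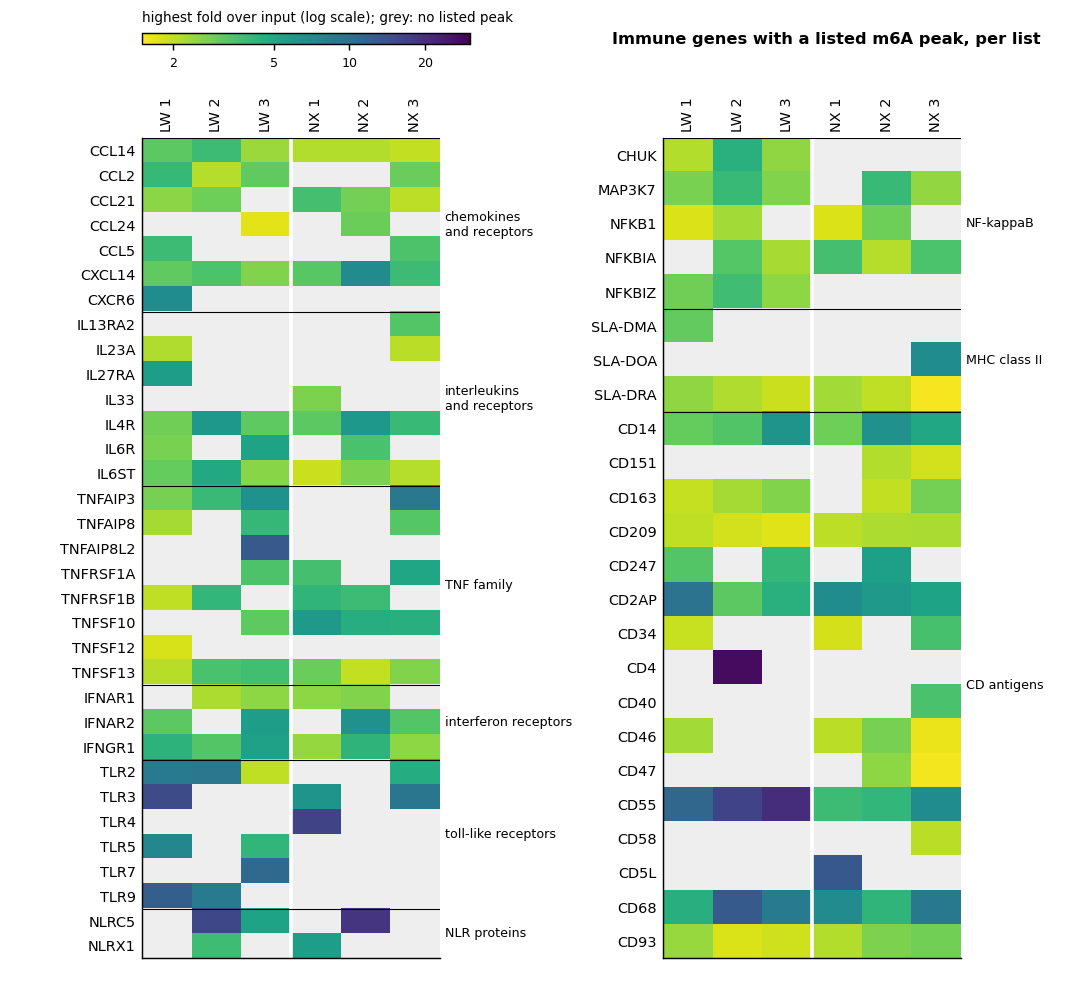
Highest fold over input of the peaks on the immune genes (rows, grouped by role; 1 gene is not shown) in each list (columns; LW, Large White; NX, Ningxiang), on a log colour scale with grey where no peak is listed. Rows filled in all 6 lists number 13, and CHUK and NFKBIZ are filled in the 3 Large White lists alone.

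The difference between the breeds in the number of immune genes with a peak was within the spread of the lists. It was 39, 29 and 33 in Large White lists 1, 2 and 3 and 27, 29 and 35 in the Ningxiang lists, and the groups overlapped. The means were 33.7 ± 5.03 and 30.3 ± 4.16 (SD, n = 3 each), a difference of 3.33 with a two-sided exact permutation p of 0.6 (adjusted p = 0.84 over 6 measures), where the smallest p that 3 lists against 3 can give is 0.1. In peaks the lists held 57, 40 and 49 against 34, 44 and 46, a difference of means of 7.33 (exact permutation p = 0.4, adjusted p = 0.8). As a share of all genes in the list, the immune genes made up 2.64%, 2.11% and 2.14% in Large White and 2.06%, 2.15% and 2.43% in Ningxiang. That difference was 0.0822 percentage points (exact permutation p = 0.7, adjusted p = 0.84), and without Large White list 1, which holds the most immune genes, it turned to -0.0883. For the immune genes without CD symbols the differences were larger. They were 5.67 genes (exact permutation p = 0.2), 10.3 peaks (exact permutation p = 0.1, the smallest possible) and 0.291 points of share (exact permutation p = 0.1). These p-values are not adjusted, and this set was not counted at equal list length. The CD genes left out were 11 in the Large White lists and 15 in the Ningxiang lists. CHUK and MAP3K7, which entered by name, stay in the set, so no conclusion is drawn from it.

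**Figure D3:**
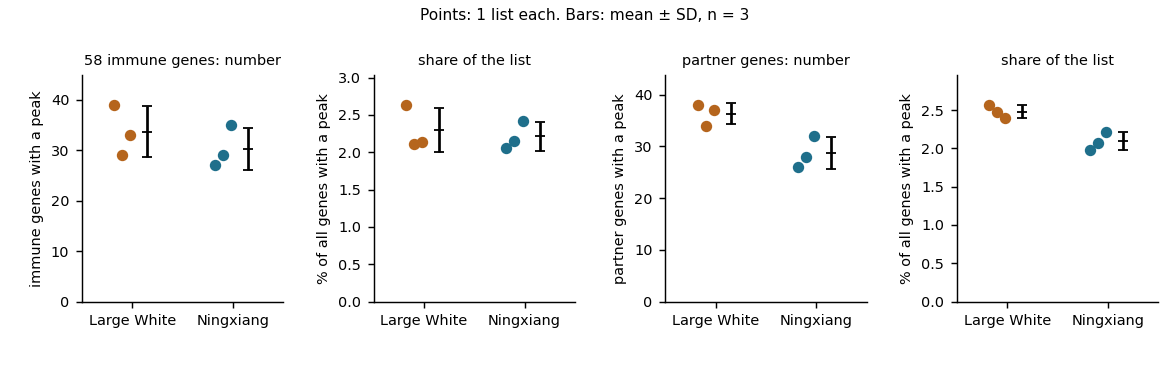
Number of immune genes and of partner genes of the same pathways with a peak, and their share of all genes with a peak in the list (vertical axes), in the 3 Large White and 3 Ningxiang lists. Points are single lists and bars are mean ± SD; the immune genes overlap between the breeds (27 to 39), and the partner genes do not (34 to 38 against 26 to 32).

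Among the chemokines, small proteins that draw leukocytes into tissue, and their receptors, 8 genes carried 31 peaks. CCL14, a chemokine that acts on monocytes, had highest folds over input of 3.18, 3.84 and 2.34 in Large White lists 1 to 3 and 2.12, 2.11 and 1.97 in the Ningxiang lists. Each Large White value lay above each Ningxiang value. These folds are the authors' values, each relative to the input of its own list, and are given as descriptions of the peaks and not as methylation levels. The strongest CCL14 peak, at log10 p -27.6, spanned chr12:39615207-39615933 and was annotated as 3' UTR, and a stretch of 378 bp at chr12:39615673-39616050 was covered in all 6 lists. Such a stretch joins the overlapping exonic blocks of the gene's peaks, and each list counted holds a block within it.

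CXCL14, a chemokine made by epithelial and stromal cells, had folds of 3.12, 3.49 and 2.65 in Large White and 3.26, 7.04 and 3.85 in Ningxiang. The Ningxiang 2 value was the highest, and the groups overlapped. CXCL14 held a peak in every list, yet no single exonic stretch was covered in all 6: the stretch of 326 bp nearest its 3' end was covered in 5 lists and not in Ningxiang 3, and the stretch of 189 bp upstream of it was covered in 4 lists, Ningxiang 3 among them. Its strongest peak (log10 p -14.7) ran from the last of 4 exons over splice junctions, chr2:137804996-137812557, in Large White 2.

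CCL2, which attracts monocytes, had a peak in 3 Large White lists (folds 4.02, 2.1 and 3.11) and in Ningxiang 3 (2.98). The strongest, at log10 p -22.4, crossed all 3 exons of the gene at chr12:40798465-40799892. CCL21, a ligand of CCR7 made by lymphatic endothelium, was listed in 2 Large White and 3 Ningxiang lists with folds of 2.01 to 3.65. CCL24, an eosinophil attractant, and CCL5, an attractant of T cells and monocytes, each had 1 peak per breed. CXCR6, the receptor of CXCL16, had a single peak of fold 7.01 in Large White 1.

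The interleukin group, 7 genes with 38 peaks, was made up mostly of receptors. IL4R, the chain shared by the receptors of IL-4 and IL-13, had folds of 2.86, 6.05 and 3.17 in Large White and 3.18, 6.08 and 3.92 in Ningxiang. List 2 was the highest in each breed. Its 2 stretches covered in all 6 lists both lay in the last of 9 exons, 298 bp at chr3:19527750-19528047 and 565 bp at chr3:19528165-19528729, and the strongest peak (log10 p -27) was chr3:19528225-19528699 in Large White 3. Blocks in upstream exons of IL4R were listed only in Large White 1 and 3.

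IL6ST encodes gp130, the signal-transducing chain of the IL-6 family receptors, and carried the strongest peak of the group (log10 p -60.2, chr16:35105578-35106053, Large White 1). Its highest folds were 3.03, 4.89 and 2.54 in Large White and 1.91, 2.7 and 2.1 in Ningxiang. Large White 3 fell below Ningxiang 2, so the groups overlapped. The last of 16 exons held a stretch of 786 bp at chr16:35105281-35106066 that was covered in every list. Each list also held IL6ST blocks in exons far upstream of the last. IL6R, the binding chain that pairs with gp130, had a peak in Large White 1 and 3 and Ningxiang 2 (folds 2.74, 5.3 and 3.56), each reaching its last exon. Peaks in 1 list were found on IL13RA2, the decoy receptor of IL-13 (3.34, Ningxiang 3), IL27RA, the IL-27 receptor (5.61, Large White 1), and IL33, an alarmin released by damaged cells (2.72, Ningxiang 1).

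IL23A, a subunit of IL-23, is a member by annotation alone. Both peaks (Large White 1 and Ningxiang 3, folds 2.14 and 2.04) lie on the opposite strand and carry the gene number of STAT2, in the last of 24 exons of that gene, which overlaps IL23A. All other 268 member peaks carry the number of the gene they are listed under. Conversely, 14 peaks whose number names a gene of the rule are listed under a neighbouring gene and so were not taken. They name SLA-2, SLA-3, SLA-6 and SLA-7, which encode MHC class I chains, and CXCL10, an interferon-induced chemokine. SLA-3 was in 3 Large White and 2 Ningxiang lists with folds of 1.84 to 3.59 and log10 p down to -50.5, SLA-7 in 1 and 2 lists, SLA-2 in 2 Ningxiang lists, and SLA-6 and CXCL10 in 1 Ningxiang list each. Class I genes are near-identical in sequence, so reads may have been shared between them. By gene number the set holds 62 genes and 282 peaks, with 13 in all 6 lists.

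In the TNF family, 8 genes carried 38 peaks. TNFSF13 (APRIL), a ligand that supports B and plasma cells, had folds of 2.07, 3.54 and 3.73 in Large White and 2.99, 1.97 and 2.65 in Ningxiang, and the groups overlapped. The peak held in all 6 lists differed from those of most other members in position. Its stretch of 237 bp, chr12:52854243-52854479, lay at the very 5' end of the gene and was annotated as 5' UTR. The strongest was chr12:52854243-52854450 (log10 p -13.1). Large White 1 also held a weaker TNFSF13 peak annotated as 3' UTR, chr12:52856284-52856431 (fold 1.92, log10 p -2.84). TNFSF12 (TWEAK), the neighbouring gene upstream, had 1 peak, of fold 1.79 in Large White 1.

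TNFSF10 (TRAIL), a ligand that triggers death receptors, was in 3 Ningxiang lists and 1 Large White list, a difference that 3 lists a breed cannot test. Its highest folds were 5.96, 4.64 and 4.57 in Ningxiang 1 to 3, and in Large White it had a peak in list 3 alone (3.16). The strongest peak was chr13:111023847-111024055 in Ningxiang 3 (log10 p -11.3), in the last of 5 exons. Next to it, the stretch of 361 bp at chr13:111024559-111024919 was covered in all 3 Ningxiang lists and in no Large White list, the 1 member stretch with that pattern.

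TNFAIP3 (A20), an enzyme that edits ubiquitin chains and restrains NF-kappaB, was in 3 Large White lists and 1 Ningxiang list, with folds of 2.76, 4 and 6.42 in Large White and 9.08 in Ningxiang 3. The Ningxiang 3 value was the highest of the 4. Its strongest peak, chr1:26477884-26479670 in Large White 3 (log10 p -26.6), covered 896 bp of exon, and 8 separate stretches of the gene were listed. The TNF receptors TNFRSF1A (1 Large White and 2 Ningxiang lists, folds 3.48 to 5.11) and TNFRSF1B (2 and 2 lists, 2 to 4.22) were listed in both breeds. On TNFRSF1A the Large White 3 stretch and that of Ningxiang 1 and 3 did not overlap. TNFAIP8, a relative of A20 in name alone that affects cell survival, was in 2 Large White and 1 Ningxiang lists, and TNFAIP8L2, of the same protein family, had 1 peak of fold 13 in Large White 3.

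The interferon receptors are the chains IFNAR1 and IFNAR2, which bind type I interferons, and IFNGR1, which binds interferon gamma. IFNGR1 had folds of 4.34, 3.35 and 5.38 in Large White and 2.4, 4.26 and 2.5 in Ningxiang, with overlap between the groups. With 16 peaks it was the member with the most, and its strongest, chr1:27047109-27057446 in Large White 3 (log10 p -37.9), was joined from 5 exonic blocks of 956 bp in all. IFNAR2 had a peak in 2 lists of each breed (folds 3.2 to 6.63), in 1 stretch of 778 bp near its 3' end. IFNAR1 was also in 2 lists of each breed, at highest folds of 2.18 to 2.66. Its peaks crossed internal exons in all 4 of these lists, and Large White 3 and Ningxiang 1 held a further peak in the last of 11 exons.

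The toll-like receptors, which sense microbial molecules, had high folds and weak p-values, and the NLR proteins, cytoplasmic sensors and regulators, had high folds with p-values of mixed strength. The 6 toll-like receptors carried 16 peaks with a median fold of 8.10 and a median log10 p of -3.46, and none was stronger than -5.46. Over all 58 genes the medians were 2.89 and -7.29, and over the peaks of all other genes 2.53 and -10.1. No toll-like receptor had a peak in all 6 lists, and Ningxiang 2 held none.

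TLR2, which binds bacterial lipoproteins, had folds of 8.88, 9.17 and 1.99 in Large White and 4.68 in Ningxiang 3. Large White 3 was the lowest of the 4, and the strongest peak, chr8:75418229-75418378 in Ningxiang 3, had a log10 p of -5.09. TLR5, the flagellin receptor, was listed in Large White 1 and 3 (7.48 and 4.16, strongest at chr10:19392003-19392123, log10 p -2.98), and TLR9, the receptor of unmethylated CpG DNA, in Large White 1 and 2 (12.1 and 8.71, strongest at chr13:34356250-34356637, log10 p -4.56). Neither had a Ningxiang peak. TLR3, which binds double-stranded RNA, was in 1 Large White and 2 Ningxiang lists with folds of 15, 6.4 and 9.26. TLR4, the lipopolysaccharide receptor, had 1 peak in Ningxiang 1 (16.2), and TLR7, which binds single-stranded RNA, 1 in Large White 3 (10.8). NLRC5, the activator of MHC class I genes, was in Large White 2 and 3 and Ningxiang 2 (15.6, 5.28 and 19.1), with a log10 p of -11.3 in Large White 3, and its 6 stretches shared at most 2 lists. NLRX1, a mitochondrial NLR, was in Large White 2 and Ningxiang 1 (3.8 and 5.66).

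**Figure D4:**
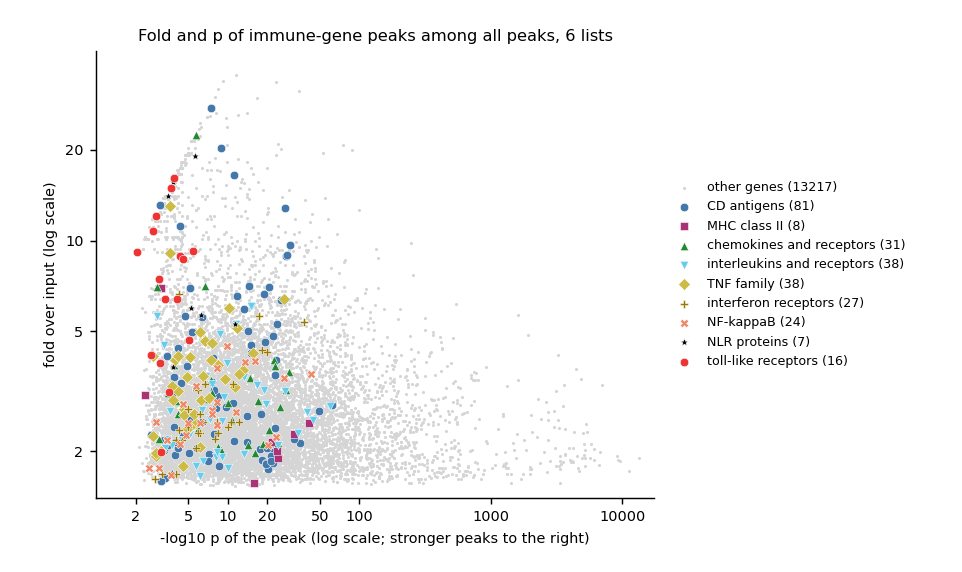
Fold over input (vertical axis, log scale) against -log10 p (horizontal axis, log scale) of every listed peak in the 6 lists, with the 270 peaks of immune genes coloured by role and the other 13217 in grey. The toll-like receptor peaks lie at the weak end of p, none stronger than a log10 p of -5.46, at a median fold of 8.10.

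NF-kappaB components gave both immune genes that were in all 3 lists of 1 breed and in none of the other. CHUK (IKK-alpha), a kinase that frees NF-kappaB, had folds of 2.11, 4.47 and 2.48 in Large White lists 1, 2 and 3 and no listed Ningxiang peak. NFKBIZ (I-kappaB-zeta), a nuclear co-regulator of NF-kappaB target genes, had folds of 2.86, 3.78 and 2.49 in the same lists and likewise no Ningxiang peak. These 2 of 58 genes are 3.45%, where 29 of all 2159 genes (1.34%) met the Large White rule. CHUK entered the set by name, and members were chosen with earlier results known, so no conclusion is drawn from these shares. For a single gene, 3 of 3 against 0 of 3 cannot go below a two-sided p of 0.1 in Fisher's exact test. No immune gene met the Ningxiang rule (0 of 58), where 0.741% of all genes did. Without Ningxiang 3, the 1 Ningxiang list with a peak on CCL2, TLR2 or TNFAIP3, the Large White count was 5. The Ningxiang count was 2 without Ningxiang 1 (CD47 and CD151), and 1 without Large White 1 (CD46) or without Large White 3 (TNFSF10). Leaving out a list loosens the rule, so these counts could only stay or rise.

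The peaks on these genes were not strong. The strongest CHUK peak was chr14:111316198-111320778 in Large White 2 (log10 p -9.89, ending in the last of 16 exons), but the stretch shared by the 3 lists was elsewhere, 108 bp at chr14:111334946-111335053. The strongest NFKBIZ peak was chr13:157268785-157268993 in Large White 2 (log10 p -8.34, exon 5 of 12), and in Large White 3 its log10 p was -2.83. Among the stronger 50% of each list neither gene was in all 3 Large White lists. With the 2034 strongest peaks of each list, CHUK kept the pattern and NFKBIZ did not, and TNFSF10 then met the Ningxiang rule.

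MAP3K7 (TAK1), the kinase upstream of CHUK, had folds of 2.73, 3.94 and 2.65 in Large White and 3.98 and 2.44 in Ningxiang 2 and 3. A stretch of 121 bp at chr1:58485070-58485190 was covered in the 3 Large White lists alone. Such stretches, in 3 lists of 1 breed and none of the other, numbered 3 of 182 for Large White (1.65%; CHUK, MAP3K7 and NFKBIZ) and 1 for Ningxiang (0.549%; TNFSF10), against 1.78% and 0.685% of the 9348 stretches of all genes. CHUK and MAP3K7 entered the set by name, so no conclusion is drawn from the Large White share. The Large White count was 9 without Large White 2, 11 without Large White 3, 7 without Ningxiang 2 and 8 without Ningxiang 3, and the Ningxiang count 2 or 3 without any 1 list. Leaving out a list loosens this rule too. NFKBIA (I-kappaB-alpha), the inhibitor that holds NF-kappaB in the cytoplasm, was listed in every list but Large White 1 (3.3, 2.22, 3.61, 2.09 and 3.5), with a log10 p of -42.9 in Ningxiang 1 and a first-exon stretch of 198 bp covered in all 5. NFKB1, the p105 precursor of the p50 subunit, was in 2 lists of each breed at folds of 1.75 to 2.91.

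**Figure D5:**
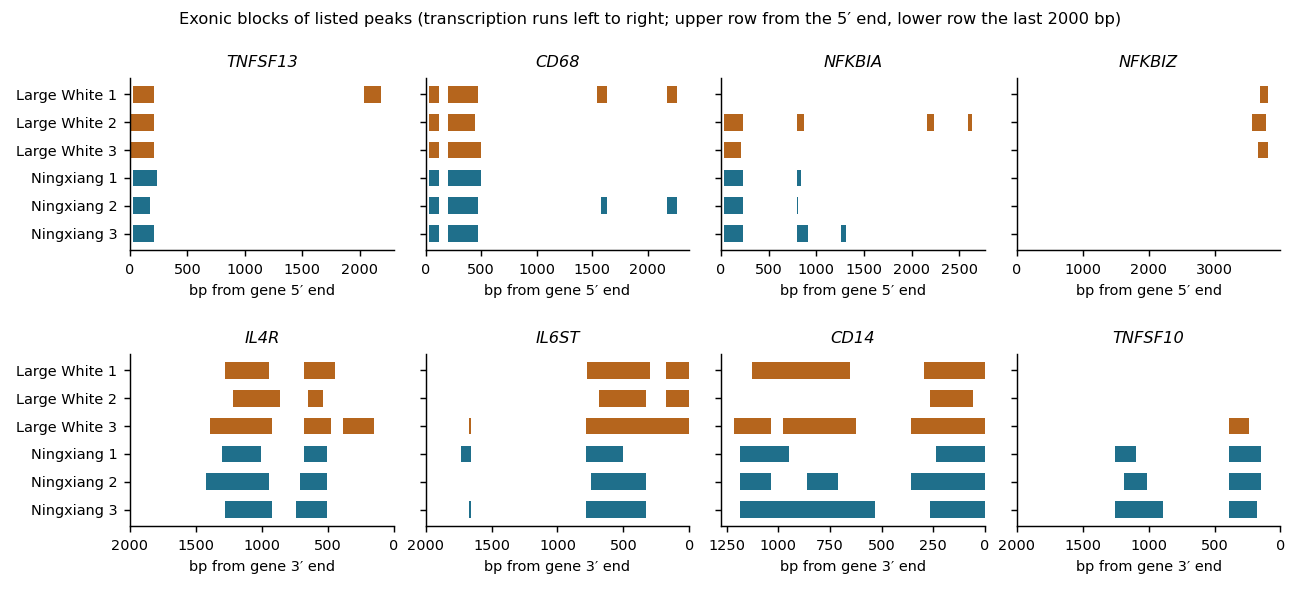
Exonic blocks of the listed peaks on 8 members (bars, 1 row per list) by distance in bp from the gene's 5' end (upper panels) or over the end of the gene, from its 3' end (lower panels). TNFSF13, CD68 and NFKBIA have a block at the 5' end in each list that holds a peak, IL4R, IL6ST and CD14 have blocks near the 3' end in every list (blocks of IL4R and IL6ST far upstream lie outside the panels), NFKBIZ has blocks in Large White alone, and the inner TNFSF10 block is in Ningxiang alone.

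Among MHC class II genes, which present peptides to T cells, SLA-DRA, the DR alpha chain, was listed everywhere, at folds of 2.48, 2.15 and 1.9 in Large White and 2.27, 2 and 1.56 in Ningxiang. The groups overlapped. All 6 peaks lay in 1 stretch of 180 bp, chr7:24827890-24828069, in exon 2 of 5, and the strongest was chr7:24827920-24828069 (log10 p -41.8, Large White 1). SLA-DMA and SLA-DOA, which help to load and restrain loading of class II molecules, had 1 weak peak each, in Large White 1 (3.07) and Ningxiang 3 (6.95).

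The genes with CD symbols number 16 with 81 peaks, 6 of them in every list. CD14, the lipopolysaccharide co-receptor of monocytes and macrophages, had folds of 3.04, 3.38 and 6.37 in Large White and 2.89, 6.63 and 4.99 in Ningxiang. The groups overlapped, and the 356 bp at its 3' end, chr2:142348036-142348391, were covered in all 6 lists and were also its strongest peak (log10 p -25.2). CD68, a lysosomal protein of macrophages, had folds of 4.59, 12.8 and 8.86 against 7.07, 4.24 and 8.98, again overlapping. Every list held a peak over the first exons, in stretches of 91 and 298 bp, and the strongest was chr12:52874784-52875227 (log10 p -28.2). Large White 1 and Ningxiang 2 also held a weaker CD68 peak starting in exon 5 of 6 (folds 1.97 and 2.02). CD209, a lectin of dendritic cells and macrophages, had low folds in all lists: 1.99, 1.85 and 1.74 in Large White and 2.03, 2.16 and 2.19 in Ningxiang.

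Every CD209 value in Ningxiang exceeded every value in Large White, with the strongest peak at chr2:71397066-71397711 (log10 p -32). CD163, the haemoglobin scavenger receptor of macrophages, was in all lists but Ningxiang 1 at 1.95 to 2.81, and CD5L, a protein secreted by macrophages, had 1 peak of fold 13.1 in Ningxiang 1.

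CD55 (decay-accelerating factor), which limits complement on host cells, had the highest fold in each Large White list among the 13 genes present everywhere, but not in the Ningxiang lists. Its folds were 11.2, 16.5 and 20.3 in Large White and 3.84, 4.14 and 6.95 in Ningxiang, and the groups did not overlap. The strongest CD55 peak was nonetheless one of fold 6.54 (chr9:67938622-67947604, log10 p -11.7, Large White 1), and 2 stretches of 154 and 233 bp were covered in all 6 lists. Of the 13 genes, CCL14 and CD55 (15.4%) had every Large White fold above every Ningxiang fold, against 8.3% of the 771 genes present in all lists, and CD209 (7.69%) had the reverse, against 5.58%. CD46, another complement regulator, was in Large White 1 (2.28) and in Ningxiang 1 to 3 (2.04, 2.78 and 1.63), strongest at chr9:135048733-135051979 (log10 p -8.17).

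CD93, a receptor of endothelial cells and monocytes encoded by 1 exon, had folds of 2.38, 1.78 and 1.87 in Large White and 2.13, 2.72 and 2.84 in Ningxiang, with overlap. It carried the strongest peak of all 58 genes, chr17:30238123-30238573 in Ningxiang 3 (log10 p -61.7). Like CXCL14 it had no stretch covered in all lists, since Large White 1 held the downstream stretch of 211 bp and Large White 2 the upstream one of 451 bp. CD34, of endothelium and progenitor cells, was in Large White 1, Ningxiang 1 and Ningxiang 3 at 3 sites that did not overlap.

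CD2AP, a scaffold protein that shares the CD letters without being a surface antigen, had folds of 9.64, 3.18 and 4.49 in Large White and 7.01, 5.94 and 5.28 in Ningxiang, overlapping. Its peak crossed the same 4 internal exons in all 6 lists, strongest at chr7:42301264-42310496 (log10 p -29.8). CD151, a tetraspanin, and CD47, the signal that restrains phagocytes, were in Ningxiang 2 and 3 alone, at 2.11 and 1.85 and at 2.49 and 1.59. The strongest were chr2:529390-529568 (log10 p -22.2) and chr13:151440948-151441097 (log10 p -6.42). CD247, the zeta chain of the T cell receptor complex, was in Large White 1 and 3 and Ningxiang 2 at 3.36 to 5.56. CD4, the helper T cell co-receptor, had 1 peak of fold 27.5 in Large White 2, the highest fold of any member, and CD40, a receptor of antigen-presenting cells (3.53), and CD58, an adhesion ligand (2.05), had 1 each in Ningxiang 3.

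The 15 genes found in a single list had highest folds from 1.79 to 27.5 and weak peaks. Their median highest fold was 6.95 and their median strongest log10 p -3.67, with none beyond -7.63. For the 13 genes in every list these medians were 5.38 and -28.2. Each value is the extreme over all peaks of a gene, and genes in every list have more peaks to take it from. Large White 1 held 5 of the 15, Large White 2 held 1, Large White 3 held 2, Ningxiang 1 held 3, Ningxiang 2 none and Ningxiang 3 held 4. Over all genes found in a single list, the same counts were 86, 58, 81, 58, 34 and 77, so Ningxiang 2 held the fewest there too. Across member peaks, fold and -log10 p had a Spearman's rho of 0.0228 over 270 peaks, which share lists and genes, given as a description.

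Immune gene peaks more often carried the number of the last exon and less often crossed a splice junction than other peaks, a description with no test. Of the 212 annotated to a numbered exon, 101 (47.6%) carried the number of the last exon, against 32.8% for other genes. The share was higher in 6 of 6 lists, but the same genes recur, 13 of them in all 6, so the lists do not count as independent. All 10 peaks of CD93, a gene of 1 exon, count as last exon by construction. A member peak of several blocks carries 1 exon number, that of its block lowest on the chromosome. On the minus strand it can count as last exon while reaching far upstream, as on MAP3K7. On the plus strand a peak that reaches the last exon may not count, as on TNFRSF1B. The part of this numbering in the share was not tested. Fewer immune gene peaks crossed a splice junction, 45.6% against 56.7%, again in 6 of 6 lists. Of the 48 immune genes with an exon number, 7 (14.6%) had transcripts of 1 or 2 exons, against 6.01% of 1813 other genes. The median was 8 exons against 9, with IL23A counted at the 24 exons of STAT2. Genes with UTR peaks alone have no exon number and are left out. The part of exon number in both shares was not tested. By distance along the gene, 37.4% of member peaks had their midpoint in the last 10%, close to the 35.4% of other peaks. Median exonic length was 208 and 210 bp. Between breeds, the last-exon share was 49.4% ± 4.22 in Large White and 45.3% ± 3.77 in Ningxiang (SD, n = 3 lists each; exact permutation p = 0.4, adjusted p = 0.8), and the junction-crossing share 45.8% ± 5.80 and 46.6% ± 6.97 (exact permutation p = 0.9, adjusted p = 0.9).

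The same pathways were followed into 102 signalling genes that the rule does not take, 65 with a curated transcript or a listed peak. Of these, 47 had a peak and 18 had one in all 6 lists. The number with a peak per list was 38, 34 and 37 in Large White and 26, 28 and 32 in Ningxiang. The groups did not overlap, at means of 36.3 ± 2.08 and 28.7 ± 3.06 (SD, n = 3), with an exact permutation p of 0.1, the smallest possible, and an adjusted p of 0.6. As a share of all genes in the list the partners were 2.48% ± 0.0844 and 2.09% ± 0.117, also without overlap (exact permutation p = 0.1, a measure added after the data were seen). With the 2034 strongest peaks of each list the difference of 7.67 partner genes became 1.33 (means 29.3 and 28, exact permutation p = 0.6), and it was 4.67 in the stronger 50% (p = 0.4, exact permutation) and 4.33 at a fold of at least 2 (p = 0.3, exact permutation).

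In toll-like receptor, TNF and NF-kappaB signalling 13 of 15 partner genes had a peak and 8 had it in all lists, among them TICAM1 (TRIF), the adaptor of TLR3, TRAF6, a ubiquitin ligase, IKBKG (NEMO) and RELA (p65). IKBKB, the kinase that partners CHUK, was in 2 Large White lists and no Ningxiang list. In JAK-STAT signalling, which transmits the interleukin and interferon receptors above, 15 of 19 had a peak, 9 of them in all lists, including JAK1, STAT6 and the feedback inhibitors SOCS2 and CISH. CISH reached a log10 p of -236. Interferon and nucleic acid sensing genes had a peak in 18 of 25, and IRF9 alone in every list. Their counts per list were 11, 13 and 11 in Large White and 6, 6 and 10 in Ningxiang, given without a test and from lists of unequal length. Those lists held 1480, 1376 and 1542 genes in Large White and 1310, 1349 and 1443 in Ningxiang. This set was not counted at equal list length, where the difference over all partner genes became 1.33. No conclusion on the breeds is drawn from these counts. The breeds overlapped in toll-like receptor, TNF and NF-kappaB signalling, at 12, 9 and 11 against 8, 10 and 10. In JAK-STAT signalling they met at 12, with 15, 12 and 14 against 11, 12 and 12. Antigen presentation held 0, 0 and 1 against 1, 0 and 0. The members IFNAR1, IFNAR2 and IFNGR1, of the interferon pathway, were listed in equal numbers of lists of each breed (3 and 3 for IFNGR1, 2 and 2 for the others). No partner gene was in 3 lists of 1 breed and none of the other. Of 6 antigen presentation partners only PSMB8, an immunoproteasome subunit, had a peak.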

How the data were processed

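The deposited files are 6 peak lists, 1 per immunoprecipitated library, each paired by the authors with input. Per the file headers each peak has a fold enrichment (a linear ratio over input) and a log10 p-value, and the deposited score column repeats the p-value. Every listed p was at most 0.00871 and every fold at least 1.53. Annotation used ChIPseeker 1.30.2 on susScr11, with FastQC 0.11.9 and HOMER also named, per the submitters' processing notes. No source used here gives the aligner, the peak caller or its cut-off.

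Coordinates are 1-based susScr11. Exon numbers, which in the files rise along the chromosome, were turned round on the minus strand, and UTR classes are less reliable there (1 of 129 minus-strand member peaks is 3' UTR, against 37 of 141 plus-strand ones). The highest fold of a gene in a list is over its peaks there, and its strongest peak has the lowest p. Exonic blocks of a gene that overlapped by at least 1 bp were merged into stretches. Gene numbers were matched to RefSeq for 13434 of 13487 peaks. Values per list were compared by two-sided exact permutation tests (SciPy 1.17.1, Python 3.11.15) with Benjamini-Hochberg adjustment over 6 measures. The breed-only count was run on simulated data with 100 planted genes per breed among 2159, and 100 were found for each. The planted genes met the rule by construction, so this checks the counting alone. Members are named, except for 1 gene that is counted but not reported here, and those in all 6 lists, in 3 against 0, or 2 or more lists apart between breeds are given in full. Members and gene lists were chosen with earlier results of these data known. Alternatives were p and fold filters, equal list length, leaving out CD symbols or 1 list, a replicate block, and gene numbers. No genome was used here, so no sequences or motifs are given.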

Additional observations from a re-analysis of the deposited data

How the results depend on the processing

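For the per-list values a p below 0.1 was not possible in any setting, since 0.1 is the smallest that 3 lists against 3 can give. The absence of a lower p is therefore no result about the breeds. With 1 list left out or with a replicate block (0.25) the smallest possible p is higher. With only the stronger 50% of peaks per list, the differences (Large White minus Ningxiang) became -0.667 for immune genes, -1.67 for their peaks, -0.266 points for their share, -3.74 points for the last-exon share and 14.1 points for junction crossing, with 0 Large White-only genes, 6 genes in all lists, and 0 breed-only stretches in Large White and 0 in Ningxiang. With 2034 peaks from every list they were -2, -1.67, -0.113, -4.59 and 5.35, with 1 Large White-only gene, 1 Ningxiang-only gene and 2 Ningxiang-only stretches. At a fold of at least 2, junction crossing became 1.55, 1 gene (CD209) was Ningxiang-only, 7 were in all lists, and Ningxiang-only stretches were 3. The partner-gene difference of 7.67 became 4.67, 1.33 and 4.33 in these settings in turn. Without CD symbols 7 genes were in all lists, and the differences rose to 5.67 genes, 10.3 peaks and 0.291 points. The last 10% of the gene, in place of the last exon, gave -3.01, and gene numbers in place of listed genes turned the share to -0.0194 (both added after the data were seen). Leaving out 1 list at a time gave differences of 0.667 to 5.67 immune genes, 3.17 to 11.7 peaks, -0.0883 to 0.189 points of share, 1.87 to 6.07 points in the last exon, -4.51 to 2.39 points across junctions and 6.33 to 9.33 partner genes. It gave 2 to 5 Large White-only and 0 to 2 Ningxiang-only genes, 13 to 15 genes in all lists, and 3 to 11 and 2 to 3 breed-only stretches. With fewer lists these rules are looser, so the gene counts could only stay or rise. The cause of the other changes between settings was not tested.

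Same-numbered lists of the breeds did not deviate together (r of 0.0222, 0.0133 and -0.0359 over genes), and unlike-numbered lists gave r of -0.0552 to 0.0432. The numbers were taken as sample names, and whether they mark a shared batch was not tested. With a replicate block the differences stayed 3.33 genes and 7.67 partner genes, at exact sign-flip p of 1 and 0.25, the latter the smallest that 3 pairs give. The planned count of the methylation consensus letters was not run, since no genome was used here.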

Other observations

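Several members lie close together in the genome. TNFSF12, TNFSF13 and CD68 lie within a short stretch of chromosome 12: the gap between TNFSF12 and TNFSF13 is 0.916 kb, and CD68 is 18.3 kb from TNFSF13. The 6-list stretches of TNFSF13 and CD68 both begin at the 5' end of the gene, while the 1 peak of TNFSF12 was in Large White 1 alone. IFNAR2 and IFNAR1, 73.2 kb apart on chromosome 13, were each in 4 lists, but shared only Large White 3 and Ningxiang 2. MHC class II genes SLA-DMA and SLA-DOA, 40.9 kb apart, shared no list.

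Endothelial markers without a place among the members, PECAM1 and CDH5, had a peak in all 6 lists. KIT, a marker of mast cells and progenitors, had one in 3 Large White lists (3.88, 2.57 and 2.55) and in Ningxiang 3 (4.01).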
